A study of Mus musculus with 9 samples.

Results

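RNA of the embryonic globins Hbb-y and Hba-x, the erythroid enzyme Alas2, the imprinted genes H19, Igf2, Dlk1 and Peg3 and the fetal liver products Afp and Alb was compared between tail skin and whole embryos in 3 states of the skin. In normal skin the mean over clones of each of these 9 genes lay below the embryo, from 5.33-fold for Alas2, whose clones ran from −5.07 to 0.54 on the log2 scale with 1 of 4 above the embryo, to 324-fold for Alb. The states differed little beside that gap, and most of the difference of H19 and Hbb-y between sham and normal skin came from 1 clone of each gene. The genes were picked by name, together with Mest, when values of H19, Hbb-y and Hba-x on these arrays were already known. Of 42624 features on the array, 32 were annotated with 1 of these genes alone and 31 of them had a value on all 9 arrays. Mest had no feature of its own, and 3 features carried its name together with Copg2.

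Skin came from the distal tail of female SKH-1 mice, a hairless strain with a working immune system, studied from 3 weeks of age. In the lymphedema group the skin was cut around the tail 16 mm from its base and the lymphatic trunks, made visible with injected dye, were closed by cautery. The sham group had the cut and the dye without cautery, and the normal group had no surgery. Tissue was taken on day 14. Each state had 9 mice in 3 pools of 3 mice, and each pool was set once against RNA of whole embryos late in gestation on a cDNA array with 2 colors, so that n = 3 pools per state. No dissection of cell types was made, and in skin RNA fewer cells of a type and less RNA per cell cannot be told apart.

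Every value below is a log2 ratio of tail skin to embryo, centered on the median of its array, so that −1 means 2-fold less RNA in skin than in the embryo relative to the typical feature. A ratio says how a clone differs between skin and embryo and gives no amount of RNA, so clones are set beside each other only in this ratio. The dyes are stated in 2 ways: by the sample labels skin carried Cy5 and embryo Cy3, by the methods the reverse. As deposited, 26 to 28 of 27 or 28 other genes typical of embryos lay above the array median, and 0 or 1 of 16 genes typical of adult skin did. On this ground the deposited values count as embryo over skin, against the labels' dyes, and their sign is turned throughout. The log base is not stated in the sources used here and was taken as 2. A natural log was not excluded, and would make each fold larger than printed.

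The 9 arrays did not all behave alike. For 186 features only the 3 normal arrays and lymphedema array 1 held a value, and the other 5 held none. The reverse held for 1 feature. Lymphedema array 1 is for this reason given beside lymphedema arrays 2 and 3 for many of the clones and genes. Other genes are given only as a mean of the lymphedema arrays. The labels do not name these 4 and 5 arrays as batches. All sham arrays fall on one side and all normal arrays on the other, so that only lymphedema array 1 separates the set of arrays from the state. With the set as a block, the difference between sham and normal skin was 1.03 (SE 0.3998) for H19. It was 1.503 (SE 0.3463) for Hbb-y and 0.532 (SE 0.2894) for Hba-x. Without the block these were 1.20 (SE 0.2132), 1.28 (SE 0.1885) and 0.734 (SE 0.1599). The blocked values lean on lymphedema array 1 alone, and the set was seen in these same data. Values of these 3 genes also led to the choice of the genes, so nothing is read from the differences. The median absolute deviation of the ratios ran from 0.484 on lymphedema array 3 to 0.669 on sham array 1, which matters for genes as far from 0 as these.

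Hemoglobin is built from alpha-type and beta-type chains, and the genes of each type are used in turn as an animal develops. Hba-x encodes the zeta chain and Hbb-y the epsilon-y chain of the first red cells, which arise in the yolk sac, and Alas2 makes the first committed intermediate of heme in red cells. Imprinted genes are expressed from the copy of 1 parent. Igf2, a growth factor, and H19, a noncoding RNA, are neighbors on chromosome 7 and are used from the paternal and the maternal copy. Both, with Dlk1, a membrane ligand of preadipocytes and fetal tissues, and Peg3, a zinc finger protein, are high in the fetus and low in most adult tissues. Afp and Alb are neighbors on chromosome 5 and encode the main serum proteins of fetal and adult liver.

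The window of 250 bases before the start of 5 of these genes is shown, since the red cell group and the liver group each carry known classes of factor motif near their starts. No array value bears on the windows, which come from RefSeq on build GRCm38.p6 and are written from 5′ to 3′ on the strand of the gene. Capitals mark the motifs searched for on both strands. These were AGATAA and TGATAA (letters bound by GATA factors), CCACCC (bound by Klf factors) and CCAAT in the red cell genes, and GTTAAT (bound by Hnf1 factors) and CCAAT in the liver genes. Hbb-y lies at chr7:103853208-103853457 (minus strand), Hba-x at chr11:32276350-32276599 (plus), Alas2 at chrX:150547167-150547416 (plus), Afp at chr5:90490464-90490713 (plus) and Alb at chr5:90460620-90460869 (plus).
Hbb-y: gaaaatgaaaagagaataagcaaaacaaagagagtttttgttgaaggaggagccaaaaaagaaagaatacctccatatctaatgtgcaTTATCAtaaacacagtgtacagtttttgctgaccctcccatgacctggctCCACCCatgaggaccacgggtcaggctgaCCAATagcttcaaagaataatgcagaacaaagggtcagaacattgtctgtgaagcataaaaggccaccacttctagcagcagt
Hba-x: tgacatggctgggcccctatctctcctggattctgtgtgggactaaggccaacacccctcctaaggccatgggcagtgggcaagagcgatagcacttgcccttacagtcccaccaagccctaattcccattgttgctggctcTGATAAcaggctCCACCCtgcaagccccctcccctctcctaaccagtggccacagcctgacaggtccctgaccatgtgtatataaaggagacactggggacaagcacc
Alas2: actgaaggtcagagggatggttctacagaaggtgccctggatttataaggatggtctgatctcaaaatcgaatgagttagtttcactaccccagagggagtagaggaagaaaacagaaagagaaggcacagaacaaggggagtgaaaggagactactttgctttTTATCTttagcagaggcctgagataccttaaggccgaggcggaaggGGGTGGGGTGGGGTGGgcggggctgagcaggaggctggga
Afp: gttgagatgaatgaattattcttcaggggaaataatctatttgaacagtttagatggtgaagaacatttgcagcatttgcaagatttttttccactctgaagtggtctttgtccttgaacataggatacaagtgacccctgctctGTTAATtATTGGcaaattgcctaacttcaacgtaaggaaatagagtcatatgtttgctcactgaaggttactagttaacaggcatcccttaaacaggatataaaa
Alb: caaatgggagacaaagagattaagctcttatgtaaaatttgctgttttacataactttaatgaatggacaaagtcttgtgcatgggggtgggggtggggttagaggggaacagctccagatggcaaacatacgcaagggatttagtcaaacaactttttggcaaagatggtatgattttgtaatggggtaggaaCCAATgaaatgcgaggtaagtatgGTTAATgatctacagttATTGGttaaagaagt
A GATA-type motif and at least 1 CCACCC stood in each of the 3 red cell windows, with TGATAA 162 bases before the start of Hbb-y (reverse strand) and 108 before that of Hba-x, and AGATAA 86 before that of Alas2 (reverse strand). CCAAT stood 83 bases before the start of Hbb-y and was absent from the windows of Hba-x and Alas2. The 3 CCACCC matches of Alas2 lie on the reverse strand and overlap each other by 1 base. GTTAAT stood 105 bases before the start of Afp and 32 before that of Alb, and CCAAT stood in both windows. Among 32851 promoter windows of this length, AGATAA occurred in 9.99%, TGATAA in 7.94%, CCACCC in 28.08%, CCAAT in 33.85% and GTTAAT in 6.43%. A match of letters is not a measured binding site.

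Against the embryo the liver products had the lowest ratios of all. Over the 9 arrays the Alb mean was the lowest of 8644 genes and Afp was next to it. In normal skin Alb was at −8.34 ± 0.452 (SD, n = 3) and Afp at −7.77 ± 0.455, which is 324-fold and 218-fold below the embryo. H19 followed at −6.03 ± 0.384 (65.2-fold), Igf2 at −5.61 ± 0.33 (48.8-fold) and Peg3 at −5.55 ± 0.305 (46.8-fold). The normal arrays of these 3 neighbors in the order overlapped. Hba-x was at −4.17 ± 0.097 (18.1-fold) and Hbb-y at −3.40 ± 0.248 (10.5-fold). Dlk1, at −2.44 ± 0.182 (5.42-fold), and Alas2, at −2.41 ± 0.18 (5.33-fold), were nearest to the embryo and overlapped. Of the 31 clones, 28 were below 0 on all 9 arrays, as were 9061 of the 30702 features with complete values. The genes were chosen as fetal genes and the reference is a fetus, so this order is a description. Whether the skin signal of such clones was near background was not tested, because signal intensities were not used here.

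**Figure D1:**
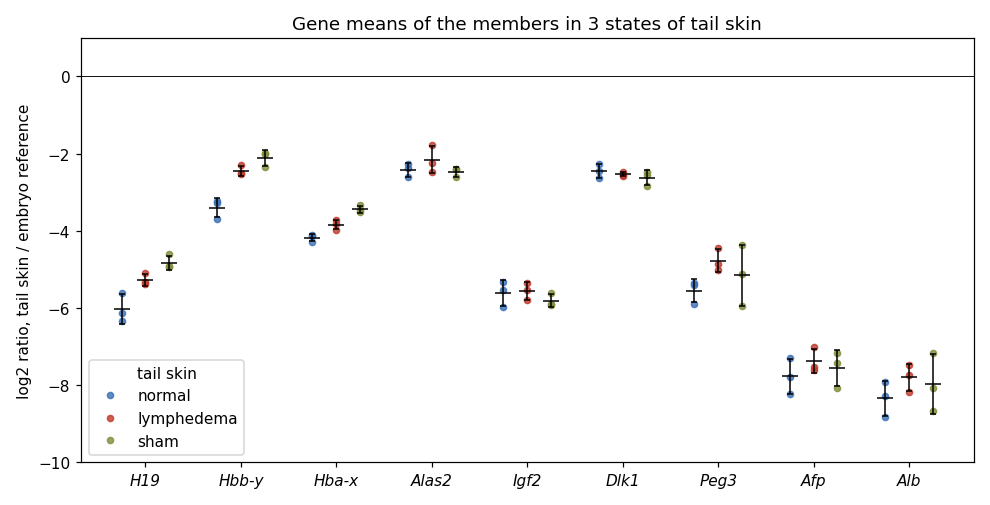
Mean of the clones of each gene (log2 ratio of tail skin to embryo reference, y axis) for 9 genes on the x axis, with 1 point per array, a long bar at the group mean and whiskers of 1 SD (n = 3) for normal, lymphedema and sham skin. All means lie below 0, Alb and Afp lowest, and the sham points of H19, Hbb-y and Hba-x lie above the normal points.

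The first pair, the embryonic globins, showed in its clones how far a gene mean can rest on 1 spot. Hbb-y had 6 clones. Clone BG073043 was at −3.90, −3.83 and −3.79 on the normal arrays, at −3.04, 0.44 and 1.10 on the lymphedema arrays, and at 1.57, 1.73 and 1.05 on the sham arrays. It was low on lymphedema array 1 and in normal skin and high on the other 5 arrays, with a gap of 3.47 between the sets. The difference from normal was 5.29 (SE 0.7004) in sham skin, a 39.02-fold ratio, and 3.34 (SE 0.7004) in lymphedema.

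The other 5 Hbb-y clones did not show this step. Their values ran from −4.03 to −1.28 over all arrays. BG073044 was at −4.03, −3.26 and −3.75 in normal, −2.38, −3.52 and −3.10 in lymphedema, and −2.69, −3.15 and −3.19 in sham skin. BG073045 was at −4.02, −3.30 and −3.19 in normal, −2.03, −3.19 and −2.91 in lymphedema, and −2.85, −2.95 and −2.84 in sham skin. The sham arrays of these 2 clones lay above the normal arrays by 0.67 and 0.62 in the mean, and both had their highest value on lymphedema array 1. The remaining 3 clones overlapped between sham and normal skin. With all clones, the Hbb-y mean was 1.28 higher in sham than in normal skin, and without BG073043 it was 0.483 higher. For lymphedema against normal the difference went from 0.949 to 0.471, and for lymphedema against sham from −0.334 to −0.012.

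Hba-x had 3 features, 2 of them complete. BG072859 was at −4.51, −4.66 and −4.50 in normal, −4.52, −3.76 and −3.85 in lymphedema and −2.62, −2.53 and −3.22 in sham skin. Sham skin was above all other arrays, by 1.77 (SE 0.2659) from normal and 1.25 from lymphedema in the means, and lymphedema array 1 sat with the normal arrays. The same 4 and 5 arrays as for the Hbb-y clone were thus apart here, with a gap of 0.66. AV133711 went the other way, at −3.76, −3.54 and −4.06 in normal, −3.43, −3.70 and −3.78 in lymphedema and −4.42, −4.13 and −3.72 in sham skin, and its groups overlapped. A second feature with the same accession had 6 values, from −0.444 to 0.585, near the typical feature, where its partner had a median of −3.76. The Hba-x mean of the complete features was 0.334 higher in lymphedema than in normal skin, and −0.121 apart after scaling to one median absolute deviation. Across the array, 356 accessions stood on 2 complete features. The means of such pairs differed by 0.786 in the median, and by more than 3 for 22 pairs.

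**Figure D2:**
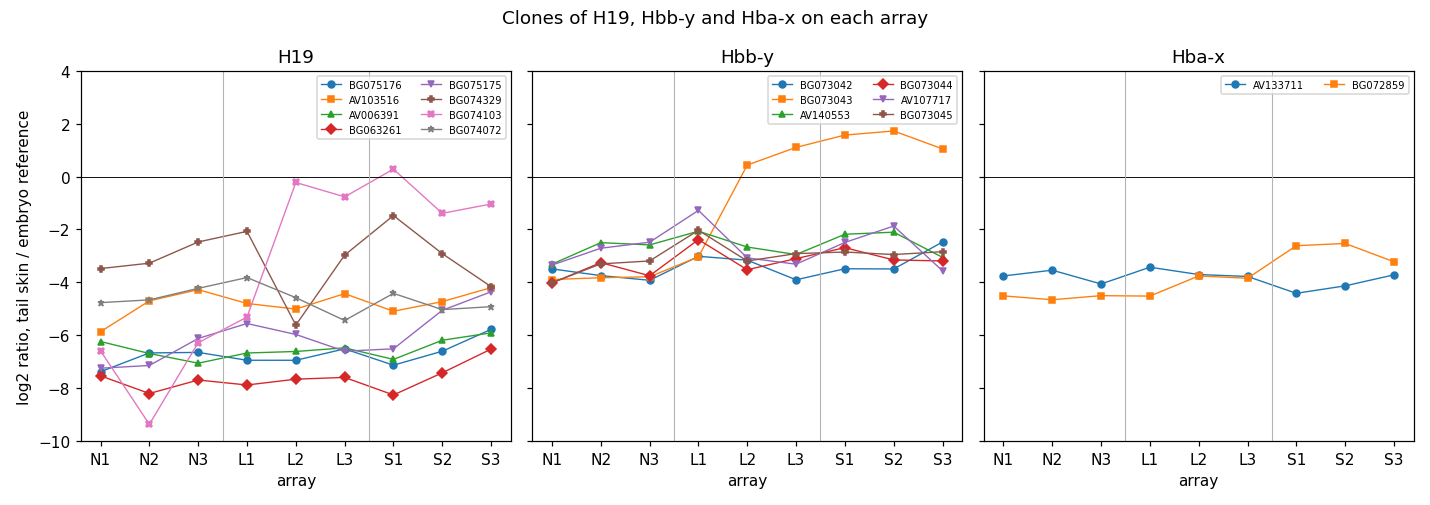
Log2 ratio of tail skin to embryo reference (y axis) of each complete clone of H19, Hbb-y and Hba-x on the 3 normal (N), 3 lymphedema (L) and 3 sham (S) arrays (x axis), with lines joining the values of a clone and standing for no order. H19 clone BG074103 and Hbb-y clone BG073043 step up between lymphedema array 1 and lymphedema array 2 by more than 3 log2 units, the other clones of these 2 genes do not separate the same arrays, and Hba-x clone BG072859 separates them with a gap of 0.66.

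Other globins on the array gave no such step. Hbb-bh1, the other embryonic beta-type chain, was at −4.29 ± 0.251 in normal skin, −4.12 ± 0.431 in lymphedema and −4.23 ± 0.086 in sham (SD, n = 3, 3 clones). The adult alpha chains Hba-a1 and Hba-a2 were at −6.53 and −7.00 in normal skin, and as near-identical copies they can share signal. Of 5 other globins measured, 0 passed an adjusted p of 0.05 in limma in any of the 3 comparisons, where 3.44% (lymphedema against normal), 0.0231% (lymphedema against sham) and 0% (sham against normal) of 8644 genes did, and 0 had an unadjusted p under 0.05. The largest differences from normal skin in lymphedema were those of Cygb, a globin of fibroblast-like cells (0.53, adjusted p 0.326), and Hba-a2 (0.49, adjusted p 0.435). On each array the median of the 5 lay from −4.58 to −3.68, with its highest value on lymphedema array 1.

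Alas2 had 4 clones that disagreed in level and moved little. AV133617 lay between −5.59 and −4.69, BG075837 between −3.93 and −2.74, AV002448 between −2.08 and −1.27, and AV085334 between 0.40 and 1.58 on the 9 arrays. The order of the 4 was the same on every array, and their means spanned 5.83, a span that 7 of 746 genes with at least 4 clones reached, Alas2 included. The median span in these 746 genes was 1.10. The Alas2 mean was −2.41 ± 0.18 in normal skin, −2.16 ± 0.35 in lymphedema and −2.47 ± 0.128 in sham. Lymphedema array 1 was highest at −1.78, and arrays 2 and 3 were at −2.23 and −2.47. The difference from normal of 0.25 had a 95% interval of −0.19 to 0.70 (limma adjusted p 0.516), and that from sham, 0.31, one of −0.14 to 0.76 (adjusted p 0.744). Neither passed the threshold, and without lymphedema array 1 the difference from normal was 0.06. It was −0.03 when the arrays were scaled to one median absolute deviation or quantile normalized.

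Of 12 other genes of heme synthesis and its transport, 0 passed in any comparison, beside 3.44% of all genes between lymphedema and normal skin. Median differences from normal were 0.23 in lymphedema, beside 0.10 for all genes, and 0.11 in sham skin, beside 0.0581. Urod, an enzyme of the pathway, differed by 0.34 (adjusted p 0.42) and Tmem14c, a mitochondrial porphyrin carrier, by 0.42 (adjusted p 0.254) between lymphedema and normal skin. Among 15 red cell genes 0 passed in any comparison, and 4 had an unadjusted p under 0.05 between lymphedema and normal skin, where 20.5% of all genes did. Aqp1, a water channel that red cells share with endothelium, differed by 1.10 (adjusted p 0.0997), and Car2, a carbonic anhydrase, by 0.76 (adjusted p 0.0779). The band 3 gene Slc4a1, which marks red cells, was at −5.05, −5.02 and −5.17 in normal, lymphedema and sham skin. Epb42 was at −1.099, −0.960 and −1.241, and Klf1 at −1.155, −0.905 and −1.979. Between sham and normal skin 5 of the 15 genes were higher. The median difference was −0.0883, beside 0.0581 for all genes, with a range from −0.823 (Klf1) to 1.14 (Aqp1). The median of the 15 lay from −1.28 to −0.898 on the normal arrays, −1.03 to −0.756 on the lymphedema arrays and −1.42 to −1.15 on the sham arrays. The part of red cell content in the globin values was not tested.

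**Figure D3:**
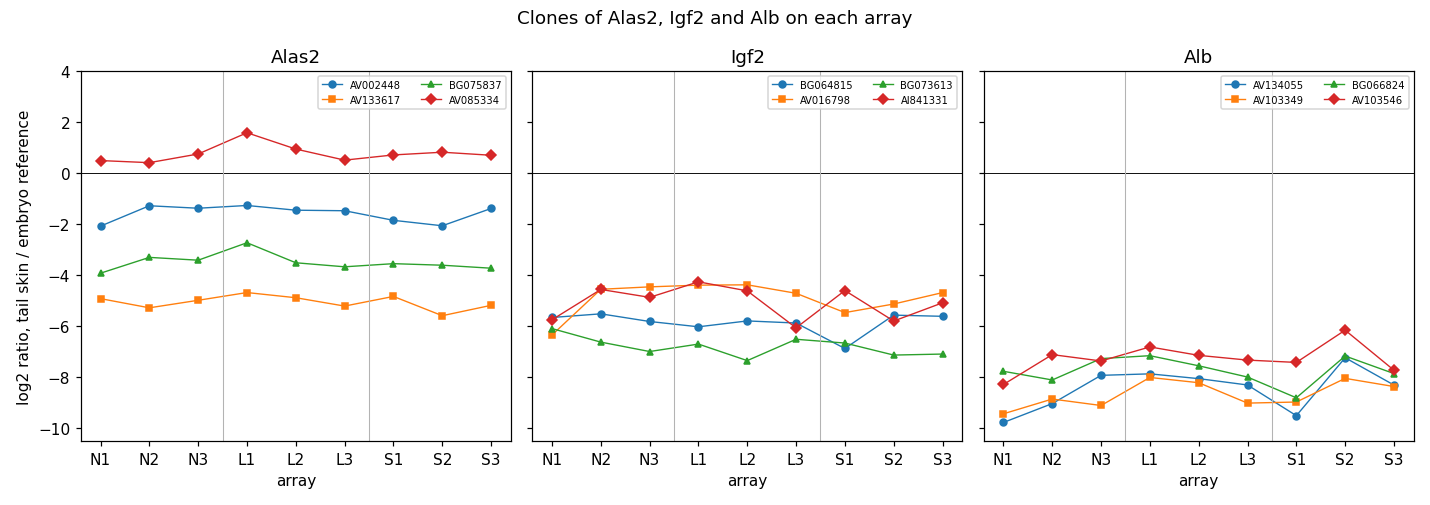
Log2 ratio of tail skin to embryo reference (y axis) of each clone of Alas2, Igf2 and Alb on the 3 normal (N), 3 lymphedema (L) and 3 sham (S) arrays (x axis), with lines joining the values of a clone and standing for no order. The 4 Alas2 clones keep their order at levels that span 5.83 in the mean, and no clone shows a step like that of the single H19 and Hbb-y clones.

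Among the imprinted genes, H19 had 8 clones. BG074103 was at −6.59, −9.37 and −6.28 on the normal arrays, −5.32, −0.22 and −0.77 on the lymphedema arrays and 0.28, −1.39 and −1.04 on the sham arrays. The same 4 arrays as for the Hbb-y clone were low and the same 5 high, with a gap of 3.92. The difference was 6.70 (SE 1.03) between sham and normal skin, a 104.1-fold ratio, and 5.31 (SE 1.03) between lymphedema and normal skin.

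The 7 other H19 clones overlapped between the states in every comparison. AV006391 was at −6.24, −6.69 and −7.06 in normal, −6.67, −6.62 and −6.48 in lymphedema and −6.92, −6.19 and −5.91 in sham skin. BG075175 came closest to a difference, at −7.25, −7.15 and −6.12 in normal, −5.56, −5.97 and −6.61 in lymphedema and −6.52, −5.06 and −4.36 in sham skin. BG074329 varied most within a state, from −5.62 to −2.07 in lymphedema and from −4.16 to −1.48 in sham skin. With all 8 clones the H19 mean was 1.20 higher in sham and 0.755 higher in lymphedema than in normal skin, and without BG074103 these differences were 0.417 and 0.104. The second was also smaller with all clones after scaling to one median absolute deviation (0.133) or quantile normalization (0.38). Between lymphedema and sham skin the H19 mean differed by −0.447, and each of the 8 clones overlapped. The difference was −0.313 without BG074103, and −1.14 and −0.707 with all clones after that scaling and that normalization. The clone means of H19 spanned 4.48, a span that 12 of the 746 genes reached, H19 included.

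Features with the step of these 2 clones were counted over the array. The division of arrays is the one these clones themselves show, and no other division was counted, so the counts are a description. Of 30702 features, 5 had lymphedema arrays 2 and 3 and all sham arrays higher than the other 4 arrays by at least 1 log2 unit, and 3 by at least 3. The 3 were the H19 clone, the Hbb-y clone and an unnamed feature with a gap of 3.23. In the other direction 1 feature, a Kcnj12 clone, had a gap of at least 1 and 0 had one of at least 3. The clone sequences were not used here, so what these spots hold was not tested.

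Igf2, the neighbor of H19, showed no such step. Its mean was −5.61 ± 0.33 in normal skin, −5.56 ± 0.224 in lymphedema and −5.81 ± 0.165 in sham, and each of its 4 clones overlapped between the states. AV016798 was at −6.35, −4.56 and −4.46 in normal, −4.40, −4.38 and −4.72 in lymphedema and −5.47, −5.14 and −4.69 in sham skin, the largest difference among the 4 in either tested comparison. The gene difference between lymphedema and normal skin was 0.05 with an interval of −0.41 to 0.50 (limma adjusted p 0.93), and it was below 0 under 6 of the alternative settings. Between lymphedema and sham skin it was 0.25, with an interval of −0.20 to 0.71 (adjusted p 0.809).

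Dlk1 and Peg3 had 1 clone each. Dlk1 was at −2.44, −2.26 and −2.62 in normal, −2.57, −2.55 and −2.47 in lymphedema and −2.83, −2.47 and −2.56 in sham skin, and the states overlapped. Its difference from normal in lymphedema was −0.09, with an interval of −0.56 to 0.38 among features (limma adjusted p 0.858). Peg3 was at −5.90, −5.34 and −5.40 in normal, −4.45, −5.02 and −4.86 in lymphedema and −5.95, −5.11 and −4.37 in sham skin. All 3 lymphedema arrays of Peg3 were above all normal arrays, and the sham arrays spanned both groups. The difference of 0.77 (interval 0.05 to 1.49) had an unadjusted p of 0.037 and an adjusted p of 0.225 in limma. At the gene level the difference was 0.178 after scaling to one median absolute deviation and 0.376 after quantile normalization. The adjusted p of the gene was 0.0487 with the sham arrays left out of the fit, and it ran from there to 0.791 over the alternatives. Between lymphedema and sham skin the difference was 0.37 (interval −0.35 to 1.09, adjusted p 0.888).

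The 3 features shared by Mest, an imprinted hydrolase-like gene, and Copg2, a coat protein gene that overlaps it, went apart. BG074611 lay between −5.14 and −4.32 and 1 AV112804 feature between 4.08 and 5.40 on the 9 arrays. A second AV112804 feature had 7 values, from −0.209 to 0.176. The accession of these last features is the same, and their values do not tell Mest from Copg2. Neither complete feature differed between lymphedema and normal skin by more than 0.16 (limma adjusted p 0.745 and 0.988).

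Of 27 other imprinted genes measured, 0 passed in any comparison, and 5 had an unadjusted p under 0.05 between lymphedema and normal skin, beside 20.5% of all genes. The 2 with the largest differences are given. Ndn, a growth suppressor, was at −3.20 ± 0.229 in normal skin, −2.46 ± 0.459 in lymphedema and −2.95 ± 0.397 in sham (difference from normal in lymphedema 0.75, adjusted p 0.143). Meg3, the maternal noncoding neighbor of Dlk1, was at −5.66 ± 0.157, −5.06 ± 0.198 and −5.51 ± 0.37 (0.59, adjusted p 0.143). The list's median difference from normal was 0.17 in lymphedema, beside 0.10 for all genes. Igf2r, which binds and removes Igf2, was above the embryo, at 1.71 ± 0.439 in normal skin, 1.53 ± 0.072 in lymphedema and 2.56 ± 0.589 in sham.

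In the Igf axis 0 of 10 genes passed in any comparison, beside 3.44% of all genes between lymphedema and normal skin. At an unadjusted p under 0.05 in limma there were 3 in that comparison, beside 20.5% of all genes. Igfbp5, a binding protein of the growth factors, was at −0.08, −1.14 and −0.38 in normal, lymphedema and sham skin (difference from normal in lymphedema −1.06, adjusted p 0.0831), and Igf2bp1, an RNA-binding protein of Igf2 transcripts, differed by 0.62 (adjusted p 0.27). Of 6 genes of Notch signaling, to which Dlk1 is related, 0 passed in any comparison. Between lymphedema and normal skin 1 had an unadjusted p under 0.05, beside the same 20.5%. Notch4 differed by 0.57 (adjusted p 0.292) and Jag2 by −0.43 (adjusted p 0.225) there.

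The liver products were low on every array and their states overlapped. Afp was at −8.22, −7.78 and −7.31 in normal, −7.52, −7.01 and −7.60 in lymphedema and −8.08, −7.43 and −7.16 in sham skin. Its difference from normal in lymphedema was 0.39, with an interval of −0.24 to 1.03 (limma adjusted p 0.498 among features), and −0.482 after scaling to one median absolute deviation. The Alb mean was −8.82, −8.28 and −7.92 in normal, −7.47, −7.75 and −8.17 in lymphedema and −8.68, −7.16 and −8.07 in sham skin. Its difference from normal in lymphedema was 0.55, with an interval of −0.24 to 1.34 (adjusted p 0.421), and −0.398 after that scaling. From sham it was 0.18, with an interval of −0.61 to 0.96 (adjusted p 0.918). Of its 4 clones, AV103349 had the lowest p, at −9.44, −8.86 and −9.11 in normal, −8.01, −8.22 and −9.02 in lymphedema and −8.98, −8.05 and −8.37 in sham skin. That clone differed by 0.72 between lymphedema and normal skin, with an unadjusted p of 0.033 and an adjusted p of 0.213.

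Of 29 other genes of fetal liver, 1 rose and 0 fell between lymphedema and normal skin at the gene level, where 3.44% of all genes were called, and 0 passed between lymphedema and sham skin. The 1 was Apoh, a phospholipid-binding serum protein, at −5.89, −5.82 and −5.72 in normal, −5.01, −4.87 and −4.97 in lymphedema and −4.96, −5.12 and −5.04 in sham skin. Lymphedema and sham skin both lay above normal skin, by 0.86 (adjusted p 0.0235) and 0.77 (adjusted p 0.196). The adjusted p of the first ran from 0.00909 to 0.698 over the alternatives. It was above 0.05 with any 1 normal or lymphedema array left out, after scaling to one median absolute deviation (difference 0.26) or quantile normalization (0.50), with the set of arrays as a block and with a variance trend. Fetub, a serum protease inhibitor that lay above the embryo, differed by 1.37 (adjusted p 0.0708). Of the 29 genes, 25 had means below the embryo in all 3 states and 4 above it in all 3. Ahsg was at −7.11, −7.16 and −7.41 in normal, lymphedema and sham skin, and Ttr at −4.25, −4.10 and −4.54.

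Across the 15 clones of Alas2, Igf2, Dlk1, Peg3, Afp and Alb, 0 passed between lymphedema and normal skin at an adjusted p of 0.05 in limma, where 2.94% of all features were called. At an unadjusted p under 0.05 there were 2, the Peg3 clone and Alb clone AV103349, beside 19.3% of features. Between lymphedema and sham skin 0 passed and 0 had an unadjusted p under 0.05, where 0.00326% and 6.69% of features did so, and the lowest adjusted p was 0.84. In simulated data for lymphedema against normal skin, the fit recovered 25.4% of 67 features changed 2-fold and 88.1% of 67 changed 4-fold. Fewer features were changed there than the 902 called in the real comparison. The simulated errors were independent between arrays, with no division of the arrays into sets, so these shares need not hold for these clones. Lymphedema against sham skin was not simulated. A change near 2-fold in these clones may not have been called. H19, Hbb-y and Hba-x were left out of this count because their values led to the choice of the genes.

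Over all 31 clones, the lymphedema arrays lay wholly above the normal arrays in 3, beside 21.7% of all features, and wholly below in 0, beside 10.2%. They lay wholly below the sham arrays in 1, the Hba-x clone BG072859, beside 3.33%, and wholly above in 0, beside 5.39%. The sham arrays lay wholly above the normal arrays in 5, beside 8.58% of all features, and wholly below in 0, beside 2.79%. The 5 were the H19 clone BG074103, the Hbb-y clones BG073043, BG073044 and BG073045, and the Hba-x clone BG072859. The rule for choosing genes used that contrast, where 0.0195% of features were called at an adjusted p of 0.05, so nothing is read from it. The comparisons share arrays. The median difference of the 31 clones was 0.241 between lymphedema and normal skin, beside 0.121 for all features. Between sham and normal skin it was 0.273, beside 0.0687, with the clones of H19, Hbb-y and Hba-x that led to the choice included. For the 15 clones of the 6 tested genes these medians were 0.241 and −0.083, with 12 and 7 of the 15 above 0.

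Lymphedema array 1 differed from arrays 2 and 3 in more than the 2 clones. It lay above the normal mean in 25 of the 31 clones, with a median of 0.732, and the mean of arrays 2 and 3 did so in 21, with a median of 0.175. Over all 30702 features these counts were 17355 and 19214, with medians of 0.074 and 0.136. All 6 Hbb-y clones were above the normal mean on array 1, with a median of 1.05, and 4 on arrays 2 and 3, with a median of 0.276. The 4 Alb clones were above it on array 1 by 0.908 in the median, and by 0.434 on arrays 2 and 3. The 4 Igf2 clones were divided, with 2 above on array 1 and 1 on arrays 2 and 3. On array 1 the median of the embryo genes used for the direction was 1.40 in the deposited scale, beside 1.73 to 2.01 on the other arrays. Whether a smaller gap to the embryo on that array takes part in these values was not tested.

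**Figure D4:**
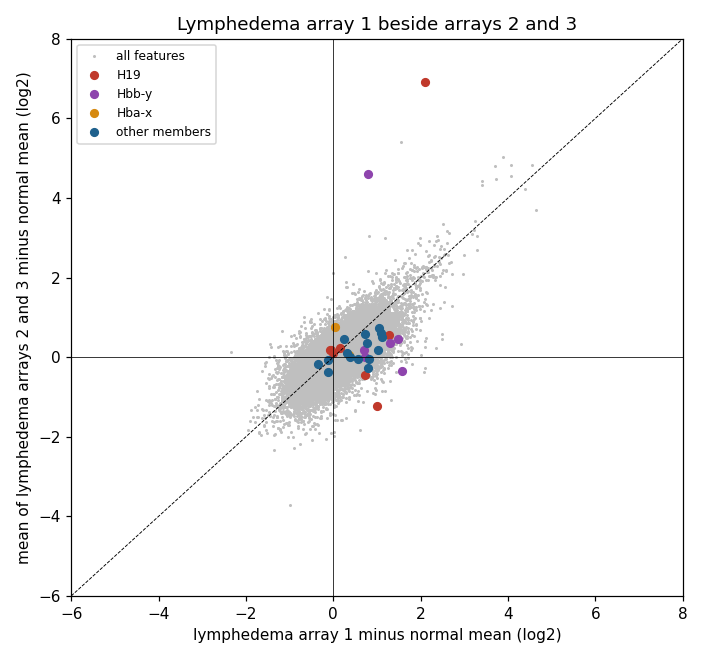
Difference from the mean of the normal arrays (log2) on lymphedema array 1 (x axis) and in the mean of lymphedema arrays 2 and 3 (y axis), for all 30702 complete features in grey and the 31 clones in color, with equal values on the dashed line. The 2 stepping clones of H19 and Hbb-y stand far above the line, and most other clones lie to the right of 0 and below it.

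Features with the most similar pattern to these genes over the 9 arrays were found by Pearson correlation, given as a description over arrays that share the reference. For the H19 mean they were 2 clones of Tnnt3, a troponin of fast skeletal muscle whose gene lies near H19 on chromosome 7 (r = 0.954 and 0.941), and a clone of Tsc22d1 (r = 0.909). Tnnt3 was at −5.05 ± 0.083 in normal skin, −4.48 ± 0.281 in lymphedema and −3.79 ± 0.893 in sham, with its highest value, −2.81, on sham array 3. Among 15 skeletal muscle genes 0 passed in any comparison, beside 3.44% of all genes between lymphedema and normal skin. The median difference of the 15 between sham and normal skin was 0.69, beside 0.0581 for all genes. Their median lay from −4.56 to −3.75 on the normal arrays, −4.32 to −4.02 on the lymphedema arrays and −4.53 to −2.81 on the sham arrays. The part of muscle content in the H19 values was not tested. The Hbb-y mean was nearest to clones of Arf2 (r = 0.956), Tpm4 (0.947) and Tsc22d1 (0.944), and the Hba-x mean to clones of Ets2 (0.939) and Foxn4 (0.938) and to the Hbb-y clone BG073043 (0.921). The Alas2 mean was nearest to clones of Hdgfl2 (0.933), Ogdh (0.923) and Snx29 (0.903). The stepping clones themselves were nearest to clones of Cul1 (0.966), Lpar1 (0.958) and Wnt7b (0.957) for H19, and of Glo1 (0.96), C1galt1 (0.946) and Gtf3c3 (0.945) for Hbb-y. The first 2 clones beside each stepping clone spanned 0.5 to 0.684 over the 9 arrays, the Wnt7b clone 1.556 and the Gtf3c3 clone 2.455. The Hbb-y clone spanned 5.62, and the H19 clone ran from −9.373 to 0.282.

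Leukocyte genes were measured as markers of other cells in the skin. Of 15 measured, 7 rose and 0 fell between lymphedema and normal skin, beside 3.44% of all genes called in either direction, with a median difference of 1.12, beside 0.10 for all genes, and 0 passed between lymphedema and sham skin. The 7 became 1 without normal array 1, normal array 2 or lymphedema array 2, 3 without lymphedema array 1 and 0 with the set of arrays as a block. Their median lay from −0.494 to −0.331 on the normal arrays, 1.12 to 1.53 on the lymphedema arrays and −0.387 to 0.744 on the sham arrays. Of the labelled tissue, the 16 adult skin genes had a median between 2.53 and 2.96 on each of the 9 arrays, with 0 passing in any comparison. The same genes served to choose the sign of the values, so their median above 0 follows from that choice.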

How the data were processed

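RNA of 9 pools of tail skin was measured on cDNA arrays against embryo RNA. Per the methods, the authors extracted features with GenePix and applied background subtraction and dye normalization. The deposited values are log ratios, 1 per feature and array, whose base and centering are not stated. Here the deposited values were read as log2. The authors' filter on reference signal and their imputation are not in the table. The sign was turned and each array centered on its median. The table holds 42624 features, of which 101 have no value on any array and 26 values were read as null, and 1.34% to 12.6% of an array is missing. Gene names come from the platform annotation (20678 features with 1 gene, 953 with several, 20993 unnamed here). The 30702 complete features were tested with lmFit and eBayes of limma 3.58.1 (R 4.3.3), over all 9 arrays and with no term but the group. The Benjamini-Hochberg adjustment ran over every complete feature, or over 8644 genes after averaging clones. Replicates are pools, and n = 3 limits the precision. In data simulated for lymphedema against normal skin, 67, 67 and 66 of 30702 features were changed 2-, 4- and 8-fold. The fit recovered 25.4%, 88.1% and 95.5% of them, with 6 false calls. The simulated errors were independent between arrays, with no division of the arrays into sets. The methods' SAM test permutes labels and was not run. Figures used matplotlib 3.10.9 in Python 3.11.15.

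The members and gene lists were chosen with earlier results of these data known. Members carry no p-value for sham against normal, nor H19, Hbb-y and Hba-x in any comparison. Genes named are all members and the 3 features most correlated with a member. Not every clone of H19, Hbb-y, Igf2 and Alb is named in the text, and their complete clones are drawn in the figures. From other lists up to 4 genes that passed are named, or up to 2 with the largest difference between lymphedema and normal. This was not done for the leukocyte and skeletal muscle lists and those used for the direction, given by counts and medians. Hbb-bh1, Hba-a1, Slc4a1, Epb42, Klf1, Igf2r, Ahsg, Ttr, the Tnnt3 levels and Kcnj12 were chosen after their values were seen. Alternatives were quantile normalization, no centering, a common median absolute deviation, a minimum of 2 of 3 values per group, the replicate number or the set of arrays as a block, a fit without the arrays of the group not compared, a variance trend, the median of clones and each array left out. Leaving out clones BG074103 and BG073043 was added after seeing the data. Columns of per-sample values left unmapped numbered 0.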

Additional observations from a re-analysis of the deposited data

How the results depend on the processing

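No clone of the 6 tested genes passed under any alternative in either comparison (0 of 15 each), and the adjusted p of the genes ran from 0.0487 to 1. The lowest was that of Peg3 with arrays of the 2 groups only. The median difference of the 31 clones between sham and normal skin, 0.273, was 0.894 with the set of arrays as a block and 0.0363 (without sham array 3) to 0.474 (without sham array 1) with 1 array left out, and 0.0958 without normal array 1 and 0.46 without normal array 3. Scaling to one median absolute deviation turned the direction of several differences, among them that of Alb, 0.549 between lymphedema and normal skin without scaling. The deviation was 0.575 to 0.609 on the normal arrays, 0.484 to 0.558 on the lymphedema arrays and 0.536 to 0.669 on the sham arrays. Between lymphedema and normal skin it gave −0.0268 for Alas2, −0.623 for Igf2, −0.482 for Afp and −0.398 for Alb, and between lymphedema and sham skin −0.0131 for Alas2, −0.524 for Igf2, −0.257 for Dlk1, −0.359 for Peg3, −0.846 for Afp and −0.904 for Alb. Quantile normalization gave −0.0344 for Alas2 and −0.338 for Igf2 in the first comparison, and −0.283 for Dlk1, −0.0242 for Afp and −0.0342 for Alb in the second. In the first comparison Igf2 was at −0.0148 without centering and −0.0268 by the median of clones. The cause was not tested. With 1 array left out the differences ran from −0.133 to 0.191 for Igf2 against normal, and against sham from −0.015 to 0.166 for Dlk1, −0.035 to 0.757 for Peg3, −0.0817 to 0.379 for Afp and −0.18 to 0.582 for Alb.

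Features called between lymphedema and normal skin, 902 as reported, numbered 2614 with arrays of the 2 groups only, 3 with the set of arrays as a block and 146 (without lymphedema array 2) to 1999 (without sham array 3) with 1 array left out. Over the alternatives they numbered 0 to 353 between lymphedema and sham skin and 0 to 78 between sham and normal skin, both highest without sham array 3. Arrays with the same replicate number did not all deviate together (r from −0.247 to 0.298), and pairs with different numbers ran from −0.341 to 0.288. No pairing by number was seen, and 3 arrays per state are too few to exclude it. With the replicate number as a block 866 features and 0 of the 15 clones were called between lymphedema and normal skin, 1 and 0 between lymphedema and sham skin, and the median between sham and normal skin was again 0.273. Signal over background was not used here.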
